A study of Mus musculus with 138 samples.

Results

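Among the single cells dissociated from the coronal suture of mouse embryos at E16.5 (embryonic day), 130 carried the transcripts of a hypodermis-like fibroblast. They were chosen by their own transcripts. A barcode with over 800 detected genes was a member when at least 3 of 7 genes (Pi16, Clec3b, Dpt, Ly6a, Mfap5, Dpp4 and Igfbp6) were detected and their unique molecular identifiers (UMIs, which mark single captured transcripts) summed to at least 15 per 10000 UMIs of the cell. The 130 members stood among 856 kept barcodes of E16.5 and 5105 kept barcodes of all single-cell libraries, and 129 of them came from library 1. The 7 genes therefore describe these cells and are no result about them, and the same holds for every other transcript of the same cells, so that members are set against other cells below without a test.

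The samples came from the coronal suture of wild-type C57BL/6J embryos, in which a suture mesenchyme (SM) separates the osteogenic fronts (OFs) of the frontal and parietal bones. Single-cell RNA sequencing used 2 libraries of pooled E16.5 sutures and 2 of pooled E18.5 sutures. The layers on the outer and inner faces of the bones were stripped before dissociation, and parts of them may have remained. Bulk RNA sequencing used laser-captured SM and OFs of 4 sutures (sagittal, lambdoid, frontal and coronal), from 5 wild-type embryos of the same strain in each of 20 groups of a suture, region and age (E16.5 or E18.5), and these libraries took no part in choosing the cells.

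The hypodermis and the fascia beneath it are loose connective tissue below the dermis. Fibroblasts there, and in the outer coat of vessels and other interstitial layers, are known for Pi16, Dpp4 and Ly6a together with secreted components of elastic microfibrils, and cells of this kind are described as progenitors of other fibroblasts and of fat cells. Over the skull vault this loose layer lies outside the periosteum of the bones, while the SM and OFs lie between the bones and at their growing edges.

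The E16.5 libraries stood apart from each other in these cells. In library 1, 129 of 497 kept barcodes were members, a share of 25.96% (95% Wilson interval 22.3 to 29.98, counting error only). In library 2, 1 of 359 was, a share of 0.279% (0.0492 to 1.56). The single member of library 2 held 5 UMIs of Pi16, 3 of Clec3b, 3 of Ly6a, 7 of Mfap5 and 2 of Igfbp6 in 3583 UMIs, and it also met the marker rule for endothelial cells. Other cells were shared more evenly, with 93 and 87 barcodes that met the macrophage markers, 25 and 28 the osteoblast markers, and 45 and 34 the markers of the SM, although 55 and 10 met those of ectocranial mesenchyme and 18 and 44 those of chondrocytes. The labels name the same dissection for both pools, and whether the membranes came away alike was not tested. The 2 libraries shared 1 barcode and none among the kept ones, and 772 and 610 further barcodes held mostly haemoglobin UMIs. Except where E18.5 is named, comparisons of cells below are within library 1 of E16.5, and nothing in them is replicated.

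**Figure D1:**
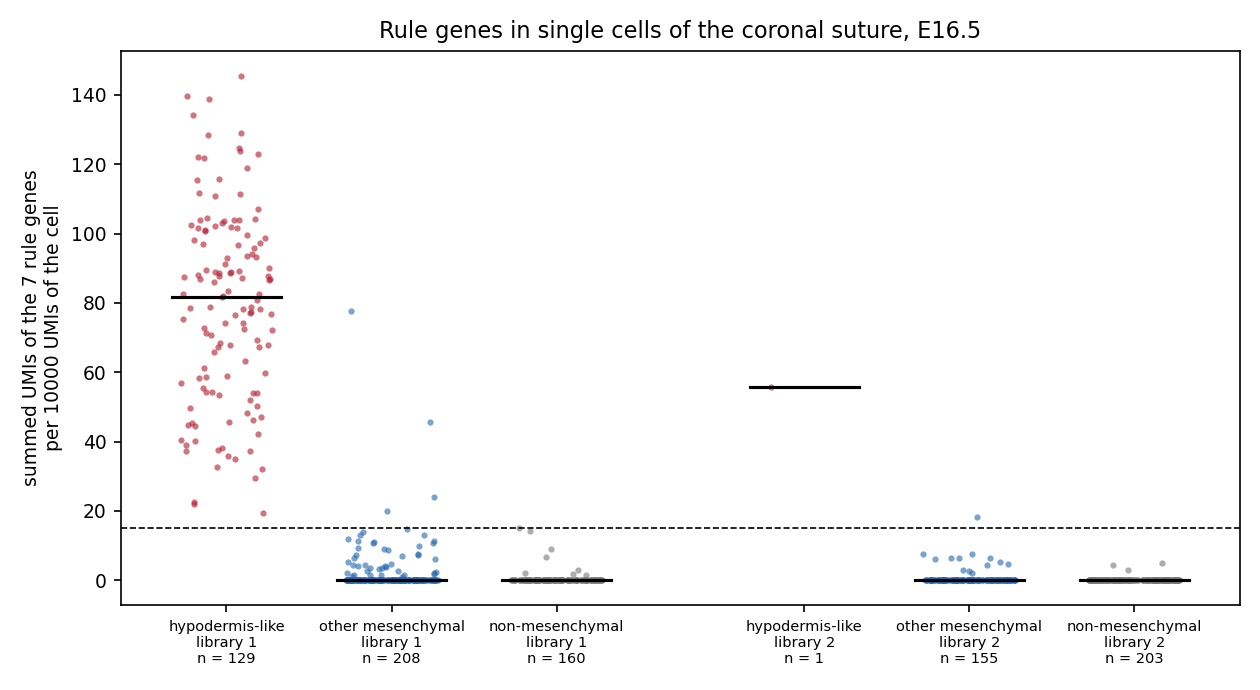
Summed UMIs of the 7 genes of the rule per 10000 UMIs (vertical axis, linear) in each kept cell of the 2 E16.5 libraries, split into hypodermis-like, other mesenchymal and non-mesenchymal cells; points are cells, black lines are medians and the dashed line marks 15. In library 1 the 129 hypodermis-like cells had a median of 81.8 and the 208 other mesenchymal cells a median of 0, and library 2 held a single cell of the former kind.

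Members held a median of 2288 UMIs (1320 to 7486) on a median of 1178 genes, with 3.83% of UMIs from mitochondrial genes. The comparison group of 208 other mesenchymal cells, which carried at least 50 collagen UMIs (Col1a1, Col1a2 and Col3a1) per 10000 and under 5 UMIs of blood cell and endothelial genes per 10000, held a median of 2621.5 UMIs on 1211 genes, with 5.42% from mitochondrial genes. Members made up 38.3% (33.2 to 43.6) of the members and the other mesenchymal cells together.

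The promoter of Dpp4 is shown as the only window of the genes named below with an early B cell factor motif, and that of Dpt because this rule gene was found in every coronal SM library of the bulk data. Each window runs from 250 bases before to 50 bases after a RefSeq transcription start (GRCm38.p6, the build of the mm10 count tables), 5′ to 3′ on the gene's strand, with matches in capitals. The Dpp4 window lies at chr2:62412182-62412481 on the minus strand, and the Dpt window at chr1:164796413-164796712 on the plus strand.
Dpp4: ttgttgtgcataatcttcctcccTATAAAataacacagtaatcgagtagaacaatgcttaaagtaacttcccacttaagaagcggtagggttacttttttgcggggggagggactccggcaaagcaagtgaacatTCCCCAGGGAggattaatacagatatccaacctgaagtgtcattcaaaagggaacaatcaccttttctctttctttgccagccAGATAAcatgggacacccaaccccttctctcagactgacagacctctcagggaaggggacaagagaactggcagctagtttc
Dpt: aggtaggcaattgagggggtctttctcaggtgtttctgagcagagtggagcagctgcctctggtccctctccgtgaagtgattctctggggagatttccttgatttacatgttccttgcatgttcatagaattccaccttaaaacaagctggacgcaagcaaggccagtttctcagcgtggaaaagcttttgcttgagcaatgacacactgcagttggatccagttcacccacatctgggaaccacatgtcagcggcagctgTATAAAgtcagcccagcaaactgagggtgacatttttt
The capitals in Dpp4 mark, in order, a TATA motif (TATAAA), a motif of the early B cell factors (EBF; TCCC and GGGA with any 2 bases between them) and a GATA motif (AGATAA), and those in Dpt mark a TATA motif. Both strands were searched, and the motifs do not overlap. RefSeq windows were found for 25 of the 37 genes named below (7 of the rule and 30 others), in 35 windows. The EBF motif stood in 1 of the 35 windows, that of Dpp4, and in 0.904% of all 32851 promoter windows. The GATA motif stood in 11.4% of the 35 windows against 11.2% of all, a motif of Krüppel-like factors (KLF; CCACCC) in 25.7% against 31.5%, and the TATA motif in 17.1% against 13.6%. A match is a description of letters, not a binding site.

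The 7 genes of the rule lie, in mm10, at chr6:122505845-122529290 (Mfap5), chr15:74994877-74998031 (Ly6a), chr9:123150946-123157432 (Clec3b), chr1:164796644-164824266 (Dpt), chr17:29317680-29330593 (Pi16), chr15:102144362-102149511 (Igfbp6) and chr2:62330073-62412231 (Dpp4), spans that take in the exons, introns and untranslated regions. Mfap5, a glycoprotein of elastic microfibrils, was found in 99.2% of members at 3101 UMI CPM (CPM, here the gene's UMIs summed over the cells and scaled to their total UMIs; 95% exact Poisson interval 2912 to 3298, counting error only, as for all single-cell values here), against 139 in the other mesenchymal cells. Ly6a, the surface protein also called Sca-1, stood at 1256 against 22.5 UMI CPM and was found in 90.7% of members. Clec3b, which encodes tetranectin, stood at 875 against 3.98 and was found in 87.6%. These 3 genes were found in most members. Pi16, a secreted peptidase inhibitor, was found in 79.1% of members at 712 UMI CPM, against 1 UMI in all 208 other mesenchymal cells. Dpt, which encodes the matrix protein dermatopontin, stood at 847 against 13.3 and was found in 77.5%. Igfbp6, a binding protein of insulin-like growth factors (IGFs), was found in 70.5% at 682 against 10.6. Dpp4, a surface peptidase also known as CD26, was the rule gene found in fewest members, 51.9%, at 335 UMI CPM, and had 0 UMIs in the other mesenchymal cells, so that it was at least 84.2-fold higher. In 48 cells that met ectocranial mesenchyme markers and were not members, Mfap5 stood at 349 UMI CPM and was found in 41.7%. Ly6a, Igfbp6 and Clec3b stood at 35.8, 31.4 and 13.4 in them, and Pi16, Dpt and Dpp4 had 0 UMIs.

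All 7 genes were detected in 28 members, 6 in 50, 5 in 29, 4 in 11 and 3 in 11. Of the 368 other kept barcodes, 314 held none of the 7 and 4 held 3. The summed level of the rule genes had a median of 81.8 per 10000 in members and reached 145, and the 3 members nearest the threshold stood at 19.4, 22.0 and 22.7. In the other mesenchymal cells the median was 0, and 77.9% of them held no UMI of a rule gene. The non-members with the highest levels, at 77.6, 45.6 and 24.04 per 10000, each held 2 of the 7 genes and so missed the rule by the number of genes.

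Free RNA was low for these genes. Among the 93 macrophage-marker cells of library 1, which should lack them, all 7 genes together had 5 UMIs, and at a depth thinned to 1500 UMIs per cell Pi16 was found in 63.6% (54.8 to 71.7) of 121 members and 0 of 85 macrophage-marker cells, which allows up to 4.32% (Wilson). At that depth Mfap5 was found in 97.5%, Ly6a in 79.3%, Clec3b in 75.2%, Dpt in 63.6%, Igfbp6 in 59.5% and Dpp4 in 42.1% of members.

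Over all genes, those of the rule included, 487 of 7648 with at least 10 UMIs (6.37%) were higher in members than in the other mesenchymal cells, and 277 (3.62%) were lower, where a gene counts as higher with a ratio of at least 2 and as lower with a ratio of at most 0.5, in both cases with exact intervals that do not overlap. The median ratio over all 7648 genes was 1.01. The 30 genes with the highest ratios, rule genes left out, are described first.

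Examples among them that encode secreted or matrix proteins are given first. Nov, the matricellular protein also named CCN3, stood at 2078 (1925 to 2241) against 109 UMI CPM, and was found in 92.2% of members. Emilin2, an elastin-microfibril interface protein, stood at 599 against 11.9, and Efemp1, which encodes fibulin-3, at 568 against 19.9. These 3 genes were higher by 19.1-fold (15.2 to 24.4), 50.2-fold (25.9 to 111) and 28.6-fold (16.9 to 52.1). Tnxb, which encodes tenascin-X, a glycoprotein that associates with collagen fibrils, held 97 UMIs in members (298 UMI CPM) and 0 in the other mesenchymal cells, at least 74.9-fold higher. Col6a6, a chain of collagen VI, was 17.5-fold higher (8.70 to 39.9), and the secreted protease gene Prss23 was 22.5-fold higher (13.8 to 38.9). Krtdap, first known from differentiating keratinocytes, held 127 UMIs (390 UMI CPM) against 0, at least 98.1-fold higher. Keratinocyte markers had 8 UMIs in members over the whole list of 8 genes, and 0 members met it.

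Other genes of the 30 encode receptors, signals and enzymes. Agtr2, a receptor of angiotensin II, stood at 519 against 26.5 UMI CPM, and Cd55, which protects cells from complement, at 442 against 25.2. Bmp7, a bone morphogenetic protein, was 19.1-fold higher (6.80 to 74.3), and Tnfrsf11b, which encodes osteoprotegerin, the decoy receptor of the osteoclast factor RANKL, held 34 UMIs against 2, a ratio of 39.4 (10.1 to 338). Ptgs1, which encodes the prostaglandin enzyme cyclooxygenase-1, held 93 UMIs against 1, a ratio of 215 (37.7 to 8599). Set against all other kept cells rather than mesenchymal ones, some of these ratios were much smaller. For Tek, the angiopoietin receptor of endothelium, the ratio was 9.001 in place of 114, for Kitl, the ligand of KIT, 4.17 in place of 62.5, for Ptgs1 18.9 in place of 215, and for the scavenger receptor gene Msr1 6.69 in place of at least 20.1. Emilin2 had 26.9 in place of 50.2, and Smim1, Mustn1 and Ly6c1 had 15.4, 15.4 and 8.45 in place of 55.6, 27.8 and 17.8. Aldh1a3, an enzyme of retinoic acid synthesis, kept a high ratio on either comparison, 37.1 and 61.7.

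The transcription factor Gata6 held 33 UMIs in members and 0 in the other mesenchymal cells, at least 25.5-fold higher, and Ahr, the aryl hydrocarbon receptor, 50 against 3, a ratio of 38.6 (12.5 to 194), which was 12.9 against all other kept cells. The remaining genes of the 30 (Efhd1, Arsj, Smim1, Tmeff2, Mustn1, Lrrn4cl, C1qtnf7, Arhgap20, Mgst1, Ly6c1, Pamr1 and Medag) had ratios from 17.4 for Medag to 132 for Efhd1, and they were found in 15.5% (Arsj) to 64.3% (Pamr1) of members. Ly6a and Ly6c1 belong to a family of close copies, among which the counting can split reads.

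**Figure D2:**
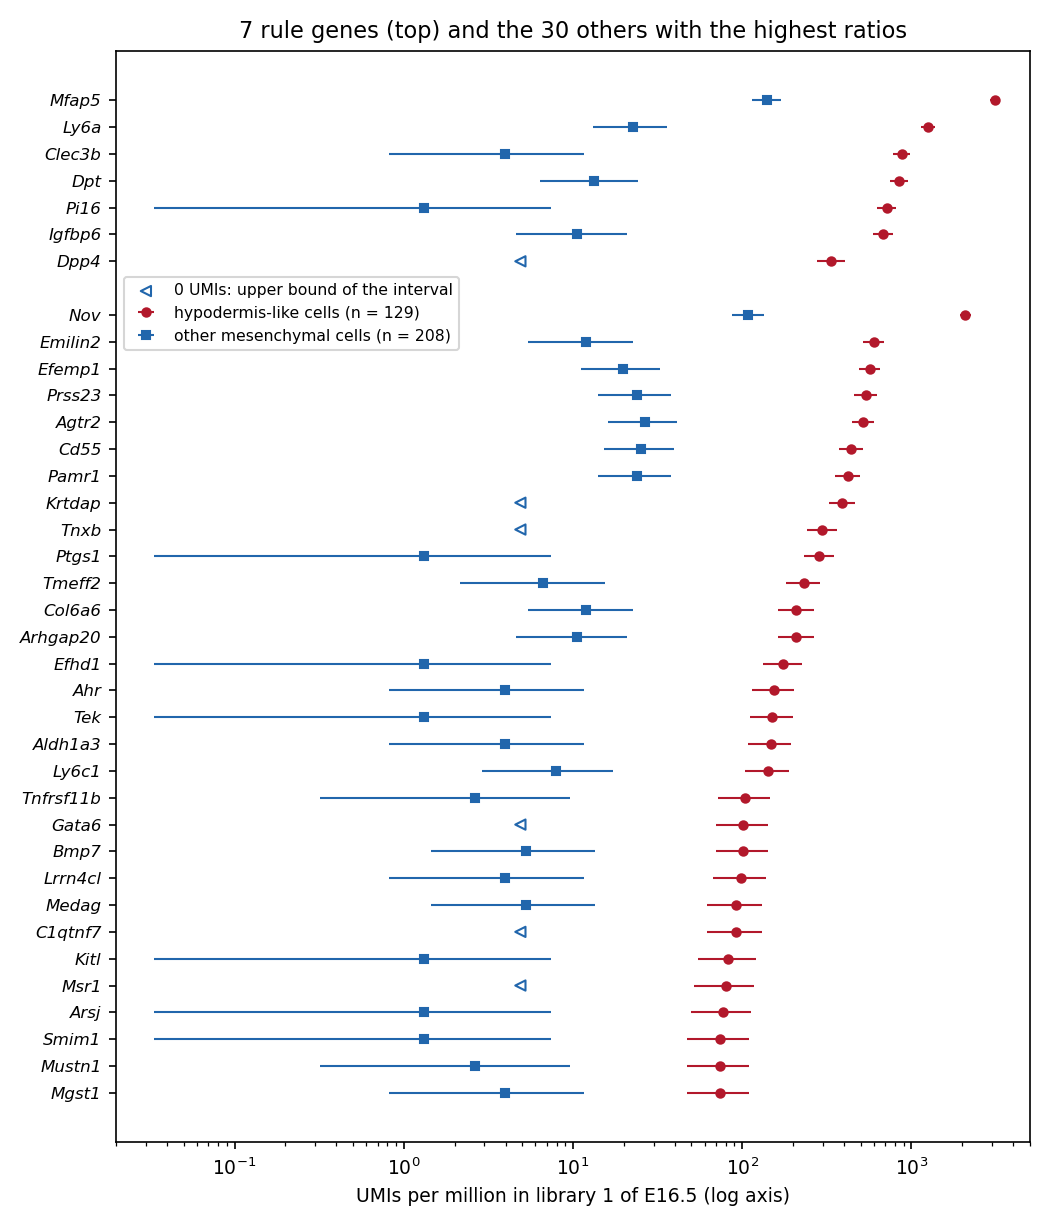
UMI CPM (horizontal log axis) of the 7 rule genes and the 30 genes with the highest ratios in library 1 of E16.5, in hypodermis-like cells (circles, n = 129) and other mesenchymal cells (squares, n = 208), with exact Poisson intervals; open triangles mark the upper bound for genes with 0 UMIs. Every gene shown stands higher in the hypodermis-like cells by its selection, from 17.4-fold for Medag to 537-fold for Pi16.

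Genes of Pi16+ Dpp4+ progenitor fibroblasts, rule genes left out, were higher in 23 of 25 measured cases (6.37% over all genes), with a median ratio of 5.22. The cells were chosen by Pi16 and Dpp4 among other genes, and some genes of this list are also among the 30 above. These counts therefore describe the cells and are no check of the label. Cd34, a sialomucin of progenitor cells and endothelium, stood at 739.9 against 142 UMI CPM, and Cd248, the fibroblast surface protein endosialin, at 669 against 53.0. The receptor gene Scara5 was 13.8-fold higher (8.64 to 23.1), and Sema3c, a semaphorin, 3.69-fold (3.10 to 4.40). The exceptions were Smpd3, a sphingomyelinase, with 1 UMI against 94, and Gpc3, which was neither higher nor lower. Of 10 measured genes of the dermal lineage, 4 were higher, among them Dlk1, the preadipocyte factor, at 2984 against 341 and Thy1 at 196.5 against 39.8, and Pdgfrb was lower at 27.6 against 82.2. Of 4 measured adipogenic genes, Lpl, lipoprotein lipase, was higher at 5.66-fold (2.51 to 13.97), while Pparg, Fabp4, Plin1 and Adipoq had fewer than 10 UMIs in either group.

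Matrix genes were split between higher and lower. Of 19 measured collagen genes, 3 were higher and 5 lower, where 6.37% of all genes were higher and 3.62% lower. Col3a1, the fibrillar collagen of loose tissue, stood at 14251 against 4477 UMI CPM, and Col5a3 was 13.9-fold higher (9.52 to 20.9). Col1a1 and Col1a2 passed in neither direction, with ratios of 0.580 and 0.685. The other mesenchymal cells were chosen by Col1a1, Col1a2 and Col3a1 and members were not, so the ratios of these genes depend on that choice. Col12a1, Col11a1, Col8a1, Col8a2 and Col22a1 were lower, with ratios of 0.240, 0.231, 0.368, 0.0548 and 0.110. Among small leucine-rich proteoglycans, Dcn (decorin) stood at 7055 against 1353, while Bgn (biglycan) stood at 239 against 1154 and Fmod (fibromodulin) at 15.4 against 188, in all 2 higher and 2 lower of 8. Of 17 elastic fibre genes 3 were higher, led by Fbn1 (fibrillin-1) at 2999 against 349, and 2 were lower, Emilin1 and Ltbp1, whereas Eln itself had a ratio of 0.862. Of 21 matrix-binding proteins 6 were higher and 5 lower. Tnc, another tenascin, stood at 9.21 against 452, the opposite direction to Tnxb. Mgp, matrix Gla protein, an inhibitor of calcification, was low at 199.6 against 1785.

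Among secreted signals, 4 of 13 measured Wnt ligands and modulators were higher and 3 lower (6.37% and 3.62% over all genes, as for each list that follows). Wnt2 stood at 534 against 62.3 UMI CPM and was found in 69.0% of members, and the Wnt potentiator Rspo3 was 5.32-fold higher (3.58 to 8.05). The Wnt inhibitors Dkk1 and Wif1 had 0 UMIs in members against 22 and 78, while another inhibitor, Dkk2, was 3.54-fold higher (2.28 to 5.55). Of 14 genes of bone morphogenetic protein and TGF-beta signalling, Bmp7, Fst (follistatin) and Fstl1 were higher and Tgfb1, with 0 UMIs against 33, was lower. Hedgehog signalling genes were higher in 0 of 8 and lower in 3, with the receptor and target Ptch1 at 6.14 against 90.1, Gli3 at 3.07 against 31.8 and Hhip at 3.07 against 78.2 UMI CPM. Of 8 IGF genes 4 were lower and 0 higher, although Igfbp6 is part of the rule. Genes of complement and related proteins were higher in 5 of 6, among them Serping1, 2.57-fold (1.81 to 3.64), and lower in 1. In the retinoid list, Aldh1a3 and Rarres2 were higher of 8, and in the chemokine list Ackr3 and Ccl11 were higher and Cxcl14 lower of 4. Of 11 S100 and annexin genes 5 were higher, S100a6 by 4.47-fold (3.85 to 5.20).

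The transcription factors of skull and connective tissue had 8 higher and 9 lower of 29 (6.37% and 3.62% over all genes). The odd-skipped factors Osr1 and Osr2 were 9.73-fold (4.80 to 21.7) and 8.63-fold (4.36 to 18.6) higher, Creb5 10.4-fold (6.52 to 17.4), Klf4 5.08-fold (4.08 to 6.35) and Ebf1 3.98-fold (3.23 to 4.92), with Ebf1 found in 79.8% of members. Ebf3, Klf2 and Twist2 were higher too, at 3.60-fold, 2.65-fold and 2.76-fold. On the other side stood factors of bone and of the skull vault. Runx2, the master factor of osteoblasts, held 3 UMIs against 97, and Sp7, Dlx5, Msx2, Alx4 and Foxc1 held 0 against 49, 47, 29, 25 and 24. Msx1, Six2 and Foxp2 were lower as well, with ratios of 0.0473, 0.0772 and 0.336.

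**Figure D3:**
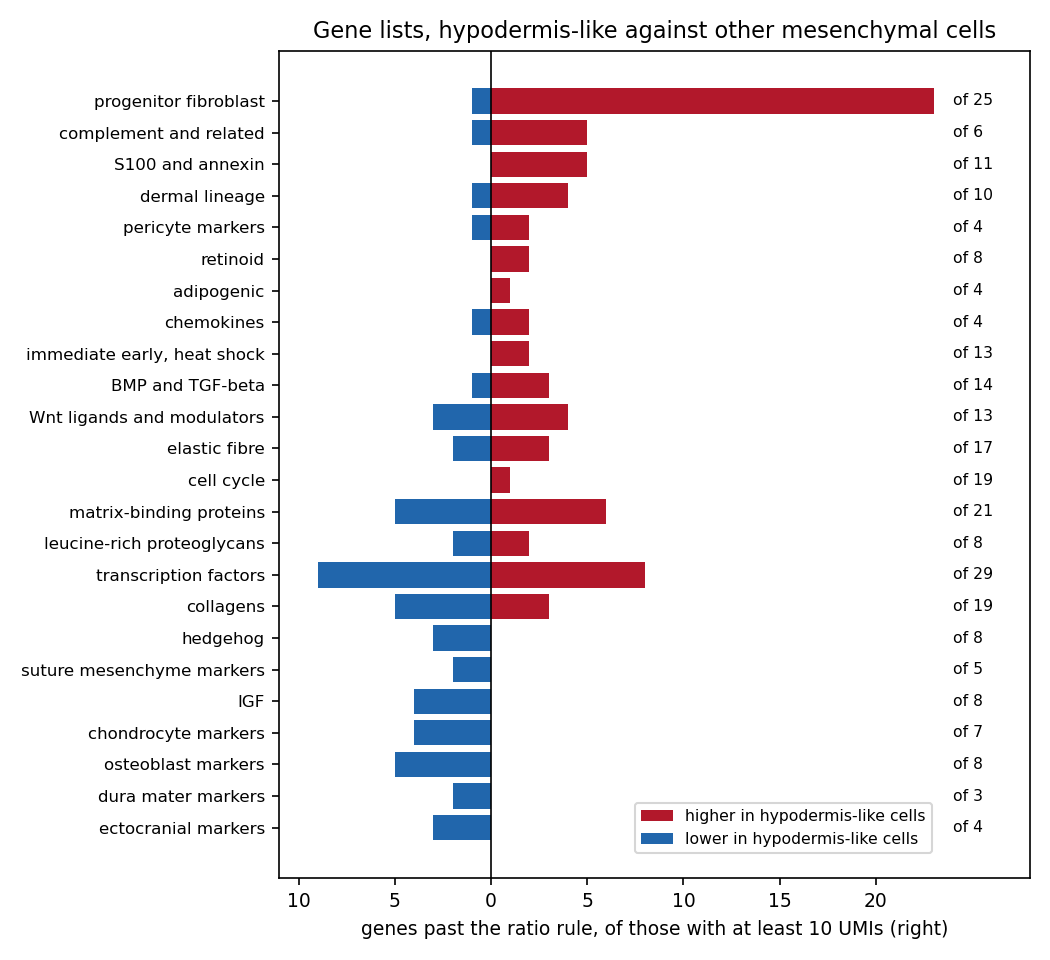
Number of genes of each list that were higher (right, red) or lower (left, blue) in the hypodermis-like cells than in the other mesenchymal cells of library 1, of the number with at least 10 UMIs printed at the right. The progenitor fibroblast list had 23 of 25 genes higher, and the osteoblast markers had 5 of 8 lower and 0 higher, where 6.37% of all genes were higher and 3.62% lower. The cells were chosen by genes of such fibroblasts, so the progenitor count describes them and is no check of the label.

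The label was checked against markers of other cell types. No member of library 1 met the markers of osteoblasts, osteoclasts, dura mater, macrophages, endothelium, pericytes, muscle, keratinocytes, glia, mast cells or the SM, 1 met those of chondrocytes, 2 those of red cells and 7 those of ectocranial mesenchyme. Spp1 and Ibsp, matrix protein genes of osteoblasts, held 0 and 2 UMIs in members against 815 and 825 in the other mesenchymal cells, a ratio for Spp1 of at most 0.00853. A minority of the comparison group carried these genes, with a Spp1 UMI in 17.8% and an Ibsp UMI in 13.9% of the 208 cells. The osteoblast list summed to 2020 UMIs over the whole comparison group and 1950 over the 25 osteoblast-marker cells of the library. The other genes with the lowest ratios were Tnc, Npnt, Ifitm5, Tnn, Tmem176b, Col8a2, Fmod, Ncam1, Tnmd, Alpl, Lmo4, Cxcl14 and Mgp, with ratios from 0.0204 (Tnc) to 0.112 (Mgp). Of the pericyte markers Kcnj8 and Abcc9 were higher at 3.79-fold and 3.71-fold and Acta2 lower at 0.172. Red cell genes were lower in 4 of 4 (3.62% over all genes), with 1817 UMI CPM in members over the whole list against 4364 in the other mesenchymal cells. The markers of the label are the rule genes themselves, so that their presence together is no check of it. The deposited counts hold no position of these cells in the tissue.

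Cell division genes were measured at equal depth, where 11.6% (7.02 to 18.49) of 121 members and 9.90% (6.50 to 14.8) of 202 other mesenchymal cells carried at least 3 of 11 G2 and M phase genes (unthinned 15.5% and 17.3%), intervals that overlap. Of 19 cell cycle genes, Ube2c alone was higher and 0 were lower (6.37% and 3.62% over all genes). Of 13 immediate early and heat shock genes 2 were higher, Egr1 at 2.504-fold and Ier2 at 3.47-fold, and against all other kept cells Ier2 had a ratio of 1.00.

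Among 1125 genes ranked by variance over mean at 1500 UMIs, where the median was 1.06, the leading 15 held Col8a1, Mgp, Igfbp3 and C1qtnf3 beside abundant genes (Gm42418, Malat1, Ptn, Igfbp5, Col3a1, Dcn, Col1a2, Col1a1, Itm2a and Sfrp2) and the replication gene Pclaf. The rule genes lay between 0.963 and 1.482. The 7 members that met the ectocranial markers carried 40 of the 94 Col8a1 UMIs of all members, a gene that the marker rule used. Genes that the marker rule did not use also stood apart in them, with Mgp at 1161 (772 to 1678) UMI CPM against 123 (86.4 to 169) in the other 122 members and 1828 in 48 ectocranial cells that were not members, and C1qtnf3 at 1119.7 (738 to 1629) against 56.4 and 641. Nov stood at 2032 in the 7 and 2082 in the 122 members, against 202 in the ectocranial cells. The summed rule genes were lower in the 7, at 4064 (3299 to 4953) against 8106 (7788 to 8434) in the 122 and 430 in the ectocranial cells. Dcn lay between as well, at 4396 against 7267 and 2553. The 7 cells came from a single library and had a median of 2641 UMIs, and whether a barcode held 2 cells was not tested.

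**Figure D4:**
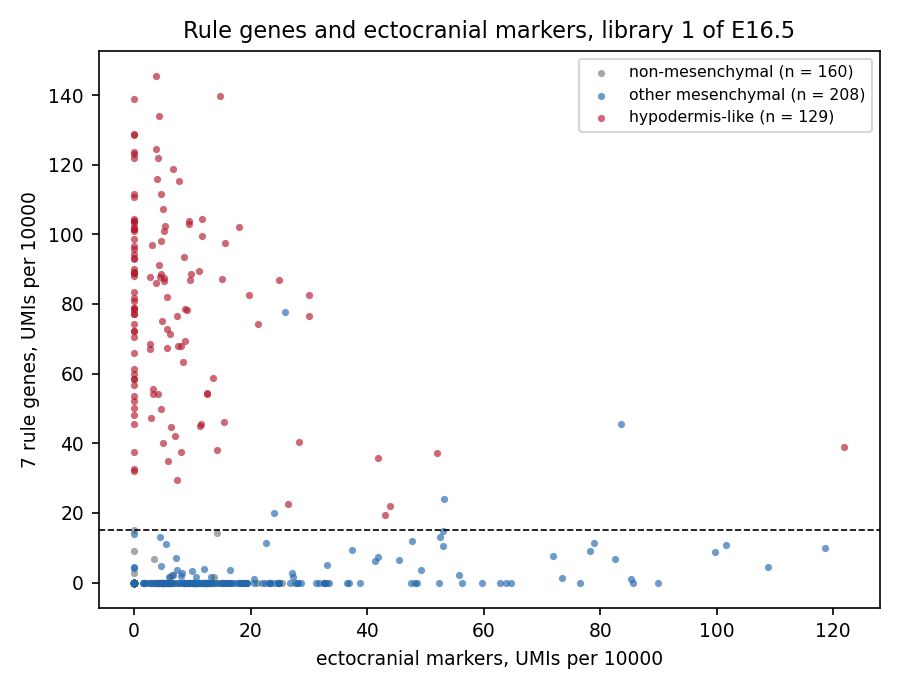
Summed rule genes (vertical axis) against summed ectocranial markers (horizontal axis), both in UMIs per 10000 UMIs of the cell, for each kept cell of library 1 at E16.5; the dashed line marks the rule's 15. Most hypodermis-like cells lie along the left edge, and a few extend to the right among the ectocranial cells.

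The same rule found few cells at E18.5. It held for 49 of 2625 kept barcodes of library 1 (1.87%) and 9 of 1624 of library 2 (0.554%), at medians of 18590 and 6031 UMIs. In library 1, 40 of the 49 (81.6%) also met the dura mater markers, which 210 of all 2625 kept barcodes met. The osteoblast markers were met by 24 of the 49 and 1253 of the 2625, and the ectocranial markers by 11 and 662. In library 2, 2, 7 and 5 of the 9 met these 3 lists, against 23, 1471 and 231 of the 1624. Mfap5 stood at 1114 UMI CPM in the 49 cells and Dpt at 2.12, where the E16.5 members held 3101 and 847. The 9 cells of library 2 held 1408 and 45.4, and the other mesenchymal cells of library 1 held Dpt at 20.7. Of the 30 genes above, 15 of 28 measured were higher than in the other mesenchymal cells in library 1 (6.09% over all genes) and 13 of 24 in library 2 (3.92%). A single cell held 133 of the 258 rule UMIs of the 9 cells of library 2, so their sums can rest on few cells. The E18.5 libraries used another capture chemistry and were deeper, so that age, chemistry and depth cannot be told apart, and 5 barcodes, 1 of them a rule cell in each, were shared by both.

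The laser-captured libraries gave an independent measure of how far the genes named for these cells are found in the SM or at the OFs. Other cells carry these genes too, so a bulk level is not a level of hypodermis-like cells. In bulk samples, fewer cells of a type and less RNA per cell cannot be told apart. Total counts ran from 7305627 to 34518477 per library, with the coronal libraries at 20133332 or more, and levels are given as CPM of reads. Summed over the 7 rule genes, coronal SM at E16.5 held a median of 10.5 CPM (4.86 to 15.5 over 5 libraries), the frontal OF 8.72 and the parietal OF 7.46, the lowest 3 medians of all 20 groups. Lambdoid SM of the same age, at a median of 246 (88.5 to 877), was the highest. All coronal groups at E16.5 thus stood at the low end for these genes.

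At E16.5 in coronal SM, Clec3b and Igfbp6 had 0 counts in all 5 first libraries. Second coronal libraries, made for some of the same embryos, are not in the values by library given here and below. Mfap5 had 0, 0.652, 0.0411, 0 and 0 CPM, and Pi16 had 10.2, 0, 0, 0 and 0.0553. Dpt, by contrast, was found in each library, at 0.442, 7.87, 8.35, 4.57 and 0.442 CPM, and Dpp4 at 3.09, 0.348, 1.93, 3.52 and 4.37. Pi16 thus rested on 1 library, and Dpt and Dpp4 overlapped between SM and both OFs. Of the 37 named genes, edgeR's quasi-likelihood test (Benjamini-Hochberg adjusted over 19768 genes, threshold 0.05) called 7 higher and 7 lower in SM than in the frontal OF (19.7% and 17.1% of all genes), and 6 higher and 12 lower than in the parietal OF (23.2% and 19.7%). As shares of the 37 genes these were 18.9% and 18.9%, and 16.2% and 32.4%, and both comparisons share the SM libraries. The SM and OF of 1 embryo entered as a block. Of 30 tested genes of the progenitor fibroblast list, 9 were higher and 9 lower in SM than in the frontal OF, and 8 and 11 than in the parietal OF.

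Efemp1 was higher in SM than in either OF at E16.5. It stood at 72.5, 54.1, 80.8, 69.3 and 147 CPM in SM, 15.8, 34.4, 41.2, 25.7 and 53.8 in the frontal OF and 26.6, 19.4, 12.9, 29.2 and 33.1 in the parietal OF. All 5 SM libraries lay above all OF libraries, with log2 differences of 1.28 (SE 0.22, adjusted p = 5.69e-06) and 1.73 (SE 0.23, adjusted p = 6.30e-09). Each SE here and below was worked back from the F statistic of the test. Ly6a stood at 0.884, 1.65, 5.22, 0.158 and 0 CPM in SM, against a summed 4 counts in the frontal OF (adjusted p = 0.00459) and a mean of 0.3302 CPM in the parietal OF (log2 2.16, SE 0.90, adjusted p = 0.0458). The call against the frontal OF was lost in 3 of 12 alternatives, among them without replicate 3 (adjusted p = 0.127) and with the second coronal libraries (adjusted p = 0.6002). The call against the parietal OF held in 4 of 12, was lost in 7, among them without replicate 2, 3 or 4 (adjusted p = 0.106, 0.309 and 0.0572), and turned to log2 -1.32 with the second coronal libraries. For Pi16 the call against the frontal OF (log2 2.85, adjusted p = 0.0360) turned to -3.90 without replicate 1.

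Other genes of the cells were lower in SM than at both OFs or at the parietal OF alone. Lrrn4cl stood at 6.83, 11.5, 1.89, 1.10 and 0.332 CPM in SM against 57.7, 58.8, 120.5, 25.97 and 90.1 in the frontal OF and 29.2, 141, 154, 121 and 122 in the parietal OF, without overlap (log2 -3.99, SE 0.47, adjusted p = 3.87e-10 and log2 -4.68, SE 0.46, adjusted p = 1.12e-12). Without replicate 2 the values were -4.75 and -5.33, and without replicate 1 the latter was -5.29. Tnfrsf11b had 2 counts over the 5 SM libraries, against 320 in the frontal OF (adjusted p = 3.79e-07) and 668 in the parietal OF (adjusted p = 2.56e-10). Arhgap20, a GTPase-activating protein, was lower in SM than in either OF (log2 -2.10, SE 0.21, and log2 -2.47, SE 0.21). Nov was lower in SM than in the parietal OF (log2 -2.39, SE 0.44, adjusted p = 1.29e-05), at 2.90, 4.31, 5.10, 2.16 and 2.65 CPM in SM. Mfap5 was lower there as well (log2 -4.79, SE 1.10, adjusted p = 0.000308), at -7.65 without replicate 2, -3.29 without replicate 3 and -2.72 with the second coronal libraries. Against the frontal OF, Nov and Mfap5 did not pass (log2 -0.36 and -1.13).

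By E18.5, Dpt and Nov had risen in coronal SM. Dpt stood at 78.4, 134, 121, 136 and 171 CPM, every library above all of E16.5 (log2 4.79, SE 0.48, adjusted p = 4.29e-10). Nov stood at 35.4, 91.8, 78.3, 60.6 and 94.6 (log2 4.33, SE 0.43, adjusted p = 3.37e-10), and Pamr1 rose by log2 3.27 (SE 0.41, adjusted p = 5.84e-08). The summed rule genes reached a median of 141 CPM, most of it Dpt. In the single cells of E18.5 library 1, Dpt held 2 UMIs in the 49 rule cells and 1045 in the 2148 other mesenchymal cells. The rise of Dpt in SM therefore cannot be assigned to hypodermis-like cells. Clec3b remained at 0 in all 5 first SM libraries, and Pi16 stood at 0.231, 0.127, 0.244, 0.285 and 0.0454 CPM. Ly6a rose by log2 2.21 (SE 0.69, adjusted p = 0.00988; 0.0840 without replicate 4, and log2 3.46 without replicate 3), and Efemp1 fell by 1.72 on the log2 scale (SE 0.27, adjusted p = 3.36e-06). Igfbp6, at 0 in E16.5, stood at 0.0924, 0.0424, 2.44, 0.333 and 0.408 CPM (79 counts, adjusted p = 0.0136), and the call was lost without replicate 3 (adjusted p = 0.170). Of the 37 genes 12 rose and 6 fell (19.1% and 20.6% of all genes). The embryos differ between the ages. The call of a fall for Pi16 (log2 -3.40) turned to 3.15 without replicate 1.

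At E18.5 Dpt had means of 128 ± 33.6 and 136 ± 46.3 CPM (SD, n = 5) in coronal SM and frontal OF, and of 31.2 ± 17.5 in the parietal OF. SM exceeded the parietal OF by log2 2.09 (SE 0.30, adjusted p = 1.03e-07), and did not pass against the frontal OF (log2 -0.05, SE 0.27, adjusted p = 0.953). Mfap5, Pi16 and Clec3b went the other way, with log2 -2.79 (SE 0.65, adjusted p = 0.00064; log2 -3.40 without replicate 3) for Mfap5 and log2 -4.17 (SE 0.91, adjusted p = 0.000273) for Pi16, and Clec3b at least 36.6-fold lower in SM (adjusted p = 0.000807; 0.0562 without replicate 3). Of the 37 genes, 10 were higher and 10 lower in SM than in the parietal OF (13.2% and 13.6% of all genes), and 2 were higher and 3 lower than in the frontal OF (3.71% and 4.15%). The difference between SM and parietal OF changed between the ages for Dpt (log2 -2.79, SE 0.57, adjusted p = 0.000645, E16.5 less E18.5; log2 -2.01 without replicate 3) and Nov (log2 -3.40, SE 0.53, adjusted p = 1.22e-05). In all, that difference changed upward for 4 and downward for 8 of the 37 genes (6.64% and 6.13% of all genes), and the difference from the frontal OF for 3 and 4 (7.23% and 6.02%).

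The SM of the frontal and lambdoid sutures held more of the rule genes than coronal SM at E16.5, while the summed level of sagittal SM (13.5 to 41.9 CPM) overlapped that of coronal SM (4.86 to 15.5). At E18.5 it was 90.3 to 185 CPM in coronal SM, 33.7 to 128 in frontal SM, 48.1 to 340 in lambdoid SM and 26.3 to 48.0 in sagittal SM. At E16.5 the OFs of the frontal suture (64.1 to 163 CPM) and of the lambdoid suture (interparietal 61.2 to 158, parietal 38.2 to 107) also lay above coronal SM. Mfap5 stood at 26.8, 41.4, 29.8, 58.1 and 31.7 CPM in frontal SM, 135, 79.9, 87.1, 37.5 and 296 in lambdoid SM and 12.2, 3.97, 7.48, 1.304 and 6.26 in sagittal SM, with every library above the highest coronal one. The log2 differences from coronal SM were 7.80 (SE 0.86, adjusted p = 2.90e-10), 9.60 (SE 0.77, adjusted p = 2.88e-14) and 5.22 (SE 1.19, adjusted p = 0.000211). As 3 of the 5 coronal libraries were at 0, these fitted sizes moved to 10.75, 12.54 and 8.17 without replicate 2 and to 4.84, 6.63 and 2.25 with the second coronal libraries, and all stayed past the threshold. Clec3b stood at 1.25, 4.21, 2.16, 2.85 and 2.80 CPM in frontal SM, 13.9, 3.92, 4.01, 4.58 and 23.3 in lambdoid SM and 2.08, 1.89, 1.25, 0.522 and 1.46 in sagittal SM, at least 112-fold, 422-fold and 60.9-fold above the coronal 0 of the first libraries. With the second coronal libraries the fitted log2 differences of Clec3b were 4.46, 6.34 and 3.53. All 7 rule genes were higher in frontal and in lambdoid SM than in coronal SM, and 4 of 7 in sagittal SM (24.5%, 25.1% and 28.8% of all genes). The 7 genes were scarce in the other mesenchymal cells of the coronal suture, so nothing about them as a set is read from these counts. In sagittal SM, Dpp4, Ly6a and Pi16 did not pass, and the call for Dpt was lost without replicate 1, 4 or 5 (adjusted p = 0.112, 0.0627 and 0.109). With the second coronal libraries 2 of 7 were called in sagittal SM, and the calls for Dpt and Igfbp6 were lost (adjusted p = 0.207 and 0.0805). Pi16 stood at 36.7, 27.7, 33.3, 11.0 and 91.7 CPM in lambdoid SM (log2 4.28, SE 0.57, adjusted p = 2.21e-08; log2 10.92 without replicate 1) and overlapped the coronal range in sagittal SM.

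Over the 37 genes, 29 were higher and 2 lower in frontal SM than in coronal SM (24.5% and 26.3% of all genes), 29 and 1 in lambdoid SM (25.1% and 25.5%) and 12 and 6 in sagittal SM (28.8% and 30.1%). The progenitor fibroblast list had 15 higher and 4 lower of 30 in frontal SM, 17 and 2 in lambdoid SM and 11 and 8 in sagittal SM. The median log2 differences of the 37 genes were 2.53, 3.29 and 0.54, where those over all genes were -0.01, 0.00 and -0.03. Of the 37 genes, 30 were chosen for a high ratio over other mesenchymal cells of the coronal suture, which favours genes scarce in coronal mesenchyme. The 7 rule genes were scarce in those cells as well, with a median ratio of 64.3. The shares and medians over all genes are therefore not what the 37 genes would show without a difference. Nothing about the 37 genes as a set is read from the counts. Tnxb, with 0 UMIs in the other mesenchymal cells of library 1, was higher by log2 6.60, 8.68 and 4.70 (8.80, 10.88 and 6.89 without replicate 4, and 4.64, 6.72 and 2.74 with the second coronal libraries), and Nov by 4.58, 5.75 and 2.54. Kitl was lower in all 3 sutures (log2 -0.93, -1.34 and -3.22), and Efemp1 was lower in frontal and sagittal SM (log2 -1.11 and -1.55) and did not pass in lambdoid SM. The frontal calls of Kitl and Efemp1 were each lost in 1 of 10 alternatives. The 3 comparisons share the coronal SM libraries and were added after the levels by suture had been seen. The suture cannot be told apart from the embryos, the depth or the tissue that each laser capture took in. The coronal libraries were the deeper ones, at 20133332 counts or more, against a median of 14244957 over all first libraries. The labels also carry complete-suture normalization controls marked C, IF, L and S. Whether the sutures differ in library preparation was not tested. Whether the captured regions of other sutures held more of the layer outside the bones was not tested.

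**Figure D5:**
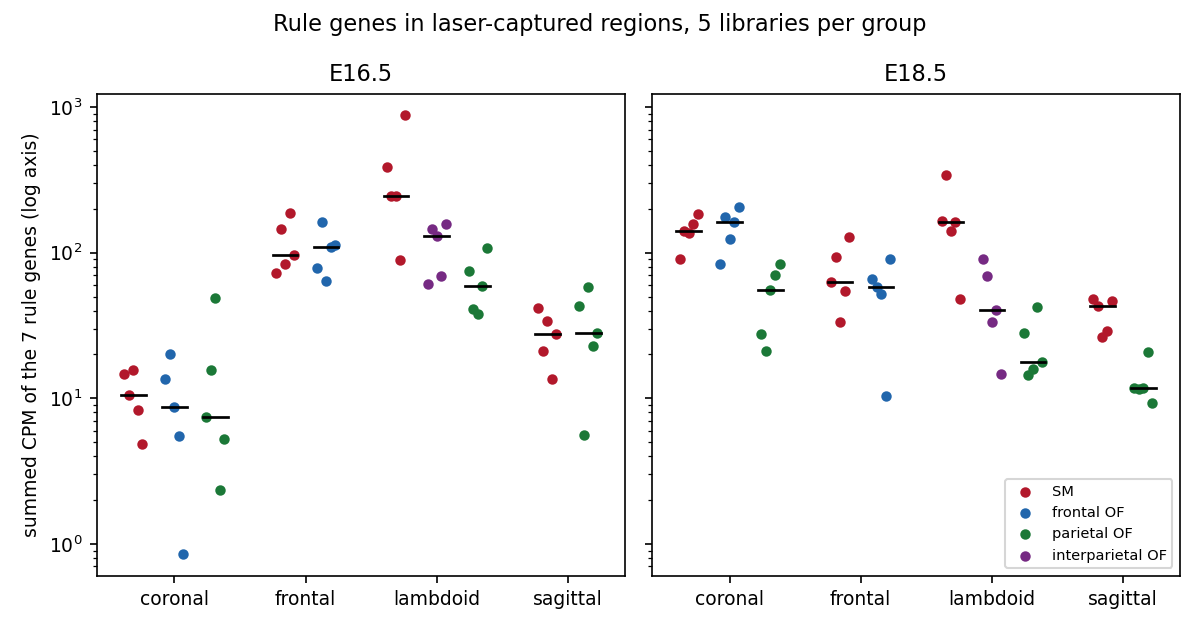
Summed CPM of the 7 rule genes (vertical log axis) in each of the 100 laser-captured libraries, by suture and region at E16.5 (left) and E18.5 (right); points are libraries, 5 per group, and black lines are medians. The coronal groups at E16.5 have the lowest 3 medians, 7.46 to 10.5, and lambdoid SM at E16.5 has the highest, 246.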

How the data were processed

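Single-cell libraries were deposited by the authors as UMI counts per gene and barcode (Cell Ranger, mm10), and laser-captured libraries as read counts per gene, which the authors made per the labels with cutadapt, STAR 2.5.3a and featureCounts 1.6.4 without strand on mm10 and GENCODE vM22. Reads of overlapping antisense genes therefore cannot be told apart.

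Barcodes with over 800 genes were kept, and no doublet caller was run. The other mesenchymal cells held at least 50 UMIs of Col1a1, Col1a2 and Col3a1 per 10000 and under 5 of Tyrobp, Fcer1g, Laptm5, Pecam1, Cdh5 and Egfl7. Cells of another type carried at least 3 of its markers at 15 UMIs per 10000 or more. The 30 genes named beside the rule were those with the highest ratio among genes with at least 20 UMIs and a UMI in at least 15% of members, the 15 lower genes those with the lowest ratio among genes with at least 100 UMIs in the other mesenchymal cells, and the 15 variable genes those with the highest variance over mean at 1500 UMIs and a mean of at least 0.2. A ratio against 0 UMIs was taken against 3 counts. Members, gene lists and tests were chosen with earlier results of these data known. Intervals cover counting error only.

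Of the bulk counts, 19768 genes that reached 1 CPM in more than 10% of 100 first libraries (55487 genes deposited, median total 14244957) were fitted with edgeR 4.0.16 (TMM, quasi-likelihood, R 4.3.3), with an embryo block between regions and none between ages or sutures, and p-values were adjusted by Benjamini-Hochberg. The SE given with a log2 difference is the size of that difference over the square root of its F statistic. It is no separate estimate of spread and does not cover the moves of a value between alternatives. Replicate numbers pair the regions because the labels tie a number to an embryo at each suture and age. Regions of 1 embryo had correlations of -0.0988 to 0.171 (median 0.0425, 20 pairs) in their deviations from the group means. The 18 second libraries entered only as an alternative, and complete-suture libraries were not used. On simulated counts of 18010 genes, 88%, 86% and 90% of 2-fold changes were recovered for SM against the frontal OF and the parietal OF at E16.5 and for age, and 100% of 4-fold changes. The changed genes were drawn from genes with mean levels above those of Clec3b, Igfbp6 and Mfap5 in coronal SM at E16.5. Counts were drawn from 1 mean per gene over all groups and the dispersion returned by the fit. No embryo effect, no added spread of single genes and no library lying apart was simulated. The recovery therefore does not cover genes near 0 counts, or genes with a wider spread or a library apart. Alternatives used limma 3.58.1 and DESeq2 1.42.0, and Python 3.11.15 served for the single cells.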

Additional observations from a re-analysis of the deposited data

Results flagged for a closer look

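In 16 of 66 coronal groups of 5 libraries that were tested over 12 genes, 1 library lay apart from the other 4 by Dixon's test. For normally distributed values chance gives about 1 in 20. Most of these genes were near 0 in the other libraries of the group, and where 4 libraries are at 0 any count in the remaining library passes. No excess over chance is therefore read from the 16. At E16.5, Pi16 stood apart in SM replicate 1 (10.2 CPM) and frontal OF replicate 4 (1.07 CPM), Mfap5 in SM replicate 2 (0.652 CPM) and frontal OF replicate 1 (1.38 CPM), and Clec3b in parietal OF replicate 2 (0.360 CPM). Dpt stood apart in parietal OF replicate 3 (28.1 CPM), Ly6a in frontal OF replicate 1 (0.222 CPM), Dpp4 in frontal OF replicate 2 (9.68 CPM), Efemp1 in SM replicate 5 (147 CPM), Tnfrsf11b in SM replicate 3 (0.0822 CPM) and Pamr1 in parietal OF replicate 2 (4.52 CPM), while Lrrn4cl was lowest in parietal OF replicate 1 (29.2 CPM). At E18.5, Clec3b stood apart in frontal OF replicate 4 (0.205 CPM), Igfbp6 in SM replicate 3 (2.44 CPM) and Lrrn4cl in SM replicate 4 (28.02 CPM), and Pamr1 was lowest in parietal OF replicate 2 (4.26 CPM).

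The difference between SM and an OF changed between the ages in 19 of 74 tests of the named genes, by an interaction contrast in edgeR (values are log2 at E16.5 less log2 at E18.5, with adjusted p). Against the frontal OF, 3 genes changed upward (7.23% of all genes) and 4 downward (6.02%). The 3 were Agtr2 at 4.58 (adjusted p = 0.000602), Ly6a at 4.63 (adjusted p = 0.0332) and Efemp1 at 1.20 (adjusted p = 0.0084), and the 4 were Lrrn4cl at -3.30 (adjusted p = 0.000275), Arhgap20 at -1.80 (adjusted p = 3.15e-05), Aldh1a3 at -1.93 (adjusted p = 0.0363) and Tnfrsf11b at -5.20 (adjusted p = 0.0119). Against the parietal OF, 4 changed upward (6.64%), with Pi16 at 4.44 (adjusted p = 0.0118; -1.44 without replicate 1 and -0.52 with DESeq2), Tmeff2 at 4.01 (adjusted p = 0.0405), Agtr2 at 2.80 (adjusted p = 0.0124) and Efemp1 at 1.53 (adjusted p = 0.00104), and 8 downward (6.13%). The 8 were Nov at -3.40 (adjusted p = 1.22e-05), Msr1 at -2.76 (adjusted p = 1.22e-05), Dpt at -2.79 (adjusted p = 0.000645), Aldh1a3 at -2.60 (adjusted p = 0.00534), Ptgs1 at -2.51 (adjusted p = 0.0162), Arhgap20 at -1.88 (adjusted p = 1.49e-05), Lrrn4cl at -1.76 (adjusted p = 0.0497) and Tnfrsf11b at -4.46 (adjusted p = 0.044). Tnfrsf11b rests on 2 counts in SM at E16.5, so its fitted value depends on the prior count. Both sets share the SM libraries. Of 12 alternatives, the call was lost in 8 for Aldh1a3 and 5 for Ly6a against the frontal OF, and in 6 each for Tmeff2, Lrrn4cl and Tnfrsf11b and 5 each for Agtr2 and Pi16 (for Pi16, 2 of them reversed) against the parietal OF. It was lost in 2 each for Agtr2, Efemp1 and Tnfrsf11b against the frontal OF. Against the parietal OF it was lost in 2 each for Aldh1a3 and Ptgs1 and in 1 for Efemp1. Against the frontal OF Ly6a stood at 3.26 without replicate 3 and 0.75 with the second coronal libraries (adjusted p = 0.763), and against the parietal OF Tmeff2 stood at 0.31 and Lrrn4cl at -1.09 without replicate 4, Aldh1a3 at -1.69 without replicate 1 and Agtr2 at 2.12 without replicate 2. With the second coronal libraries Tnfrsf11b stood at -0.92 against the frontal OF, and Tnfrsf11b at -0.80, Ptgs1 at -0.63 and Agtr2 at 0.52 against the parietal OF. With coronal libraries only, 0 genes changed upward and 2 downward against the frontal OF, and 0 and 4 against the parietal OF, of 33 tested.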

How the results depend on the processing

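The members' share of library 1 was 20.7% with over 500 genes as the limit, that of library 2 was 0% without members of another class, and lower genes numbered 557 against all other kept barcodes. With coronal libraries only, SM against the frontal OF at E16.5 gave 2 higher and 3 lower of the named genes, SM against the parietal OF 3 higher, SM against the frontal OF at E18.5 0 and 0, and SM against the parietal OF at E18.5 5 and 5. The higher count of SM against the frontal OF at E18.5 was 0 with DESeq2, 0 with limma-voom, 1 without the low-count filter, 1 with the second coronal libraries and 0 to 1 without a replicate. The second libraries gave 5 lower genes there, 3 that fell with age and 1 lower in frontal SM, which was also 1 without replicate 5. Genes whose difference from an OF changed between the ages numbered 0 upward and 2 downward (frontal) and 0 and 4 (parietal) with coronal libraries only, 2 and 2 and 2 and 8 with the second libraries, and 6 and 4 and 1 and 9 with DESeq2, and without a replicate they ran from 2 to 5 upward against the frontal OF and from 2 to 4 against the parietal OF. The cause was not tested.

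With the second libraries Agtr2 and Ly6a turned to -0.58 and -1.32 in SM against the parietal OF at E16.5, and Arsj to -0.18 against the frontal OF at E18.5. Leaving out a replicate moved Pi16 from -3.90 (without replicate 1) to 8.04 in SM against the frontal OF at E16.5, from -3.88 to 3.15 (without replicate 1) with age, and from -1.44 (without replicate 1) to 5.34 in the age difference of SM against the parietal OF, where DESeq2 gave -0.52. Of 173 calls of a gene in a comparison, 97 held under every alternative run for them.

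Without the replicate block, SM gave 6 higher and 7 lower genes against the frontal OF and 4 and 10 against the parietal OF at E16.5, and 2 and 3 and 8 and 9 at E18.5. With the block, age gave 13 and 6, frontal SM 28 and 2, lambdoid SM 29 and 1 and sagittal SM 13 and 6. Same-numbered libraries of different embryos had correlations of -0.108 to 0.0438. Depth limits what can be said of genes at 0 counts in coronal SM.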
